A study of Mus musculus with 20 samples.

Results

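Transcripts of 9 genes that mark adipose progenitors and fibroblasts were followed in mouse white adipose tissue: Pdgfra, Pdgfrb, Dpp4, Pi16, Cd34, Ly6a, F3, Fap and Dcn. They were taken by gene name from the 56805 genes of the count tables, and all 9 were found and passed the filter on low counts that left 21306 genes. RNA was sequenced in 20 libraries, 5 mice in each of 4 groups: mice on chow and mice on a high-fat diet, each given either water or Tibetan tea prepared as a water extract, for 10 weeks. The groups are called chow water, chow tea, high-fat water and high-fat tea, and a library is named by its group and number. Strain, sex, age and fat depot are not given by the labels. Each library came from a different mouse, and p-values reflect variation among mice as well as in dissection and library preparation.

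Fat tissue holds a stroma of fibroblast-like cells around its vessels and between its lobules, and new adipocytes form from a subset of them. PDGFRα, the receptor encoded by Pdgfra, is the usual surface marker of these progenitors, while PDGFRβ (Pdgfrb) is also found on pericytes and smooth muscle cells. Cells in the connective tissue between lobules carry DPP4 and PI16 and are regarded as multipotent, more committed preadipocytes lose both, and a further population carrying tissue factor (F3) has been described as restraining adipogenesis in other cells. CD34 and Sca-1 (Ly6a) are used to sort the whole compartment but are also carried by endothelial cells, and DPP4 is made by many epithelia. FAP is a peptidase of activated fibroblasts, and decorin (Dcn) is a small proteoglycan that binds collagen fibrils.

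Each library held between 53047057 and 93314761 reads in genes, and at this depth the fewest reads of any member in a library were 92, for Fap. Some libraries carried transcripts of other organs. Genes of the exocrine pancreas took 35.9% of the reads of chow water 1, kidney genes 2.22% of high-fat tea 4, and genes of the male tract and the adrenal cortex 3.83% and 1.5% of high-fat water 4. Each share counts a short list of genes (13, 9, 13 and 7 in this order, and 12 for muscle), so an organ's whole RNA may take more. Skeletal muscle genes took 0.45% to 3.39% of the reads of 6 further libraries, chow water 2, chow tea 1, high-fat water 3 and 5, and high-fat tea 1 and 3. Changes of the members discussed below are therefore also given without the first 3 libraries and without all 9. Leaving out all 9 removes most libraries of both high-fat groups. Where a call is lost there, other organs' RNA and the smaller groups cannot be told apart. In bulk tissue, fewer cells of a type and less RNA per cell cannot be told apart.

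The promoters of 3 members are shown, Cd34 and Pdgfra because the results turn on them, and F3 because its base composition stands apart. Each sequence is the 250 bases before the RefSeq transcript start, on the gene's strand, from the GRCm38.p6 tables, in which 5 of the 9 members were matched. Capitals mark the motif GGGCGG on either strand, a GC box.
Cd34, chr1:194938571-194938820, plus strand: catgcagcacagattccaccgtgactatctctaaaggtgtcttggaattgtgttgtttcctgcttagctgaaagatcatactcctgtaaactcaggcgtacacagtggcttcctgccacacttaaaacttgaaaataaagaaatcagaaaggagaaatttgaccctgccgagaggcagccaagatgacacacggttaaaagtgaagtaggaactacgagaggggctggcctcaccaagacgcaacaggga
Pdgfra, chr5:75152001-75152250, plus strand: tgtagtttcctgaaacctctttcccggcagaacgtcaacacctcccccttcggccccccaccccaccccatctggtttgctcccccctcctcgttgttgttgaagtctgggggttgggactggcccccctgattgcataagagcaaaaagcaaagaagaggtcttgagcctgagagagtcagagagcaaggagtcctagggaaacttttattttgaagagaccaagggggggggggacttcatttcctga
F3, chr3:121723287-121723536, plus strand: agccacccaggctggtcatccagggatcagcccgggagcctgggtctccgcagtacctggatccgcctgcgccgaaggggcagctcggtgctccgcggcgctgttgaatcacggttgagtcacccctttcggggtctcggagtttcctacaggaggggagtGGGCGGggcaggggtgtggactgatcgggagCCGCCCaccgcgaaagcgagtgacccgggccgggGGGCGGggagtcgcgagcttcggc

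The F3 promoter was 70.0% GC with 24 CpG dinucleotides, against medians of 52.4% and 6 over 32851 promoters of this length. It held 3 matches to the GC box, which lay 89, 58 and 24 bases before the start, the middle one on the opposite strand. GC content was 46.4% at Cd34 and 54.4% at Pdgfra, and neither held a GC box or either of the other searched motifs on any strand. Those motifs were the TATA box, searched as TATAAA and found once at Dpp4, and the CAAT box, searched as CCAAT and found once at Pi16. The 3 motifs share no position with each other in these windows. Over all promoters 32.7% held a GC box, 33.8% a CAAT box and 12.4% a TATA box on either strand, so single matches are common.

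By mean transcript level per length the members were ordered in 3 tiers, of which the middle and lower overlapped. In RPKM, which scales reads by exon length and library size, Dcn averaged 209.9 ± 79.49 and Ly6a 154.6 ± 46.43 (SD, n = 20). Next came Pdgfrb at 18.58 ± 4.789, Pi16 at 15.48 ± 6.303, F3 at 15.16 ± 4.161, Cd34 at 14.74 ± 4.985 and Pdgfra at 11.16 ± 3.977. Neighbours in this order differed by less than the larger of their SDs, within the middle tier and between Dcn and Ly6a. Dpp4 at 8.351 ± 6.845, a spread that includes 35.19 in chow water 1, overlapped the middle tier, and Fap was lowest at 2.277 ± 0.9906. The Ly6a value is uncertain, since 19.0% of the 50-base stretches of its transcripts also occur in Ly6c1, Ly6c2, Ly6i or I830127L07Rik, and the other members share at most 4.93%.

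**Figure D1:**
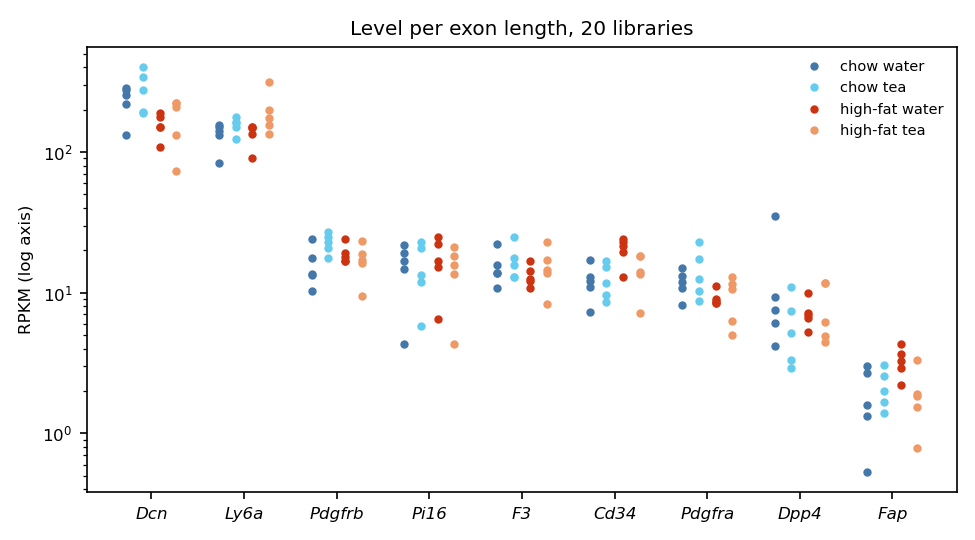
RPKM (log axis) of the 9 members in each of the 20 libraries, with 1 point per library coloured by group and genes ordered by their mean. Dcn and Ly6a sit above the other members, and a single chow water library stands above the rest for Dpp4.

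All further levels are CPM, reads scaled to a common library size with TMM factors, which can be compared between libraries for 1 gene but not between genes. Tested with edgeR (quasi-likelihood, Benjamini-Hochberg over all 21306 genes), 0 of the 9 members passed an adjusted p of 0.05 in any comparison. For the high-fat diet against chow in water-drinking mice, 15.2% of all genes passed, and 2 members had an unadjusted p under 0.05, as did 30.8% of all genes. DESeq2 called 1 member there, Cd34, among 4401 genes called, and limma voom called 0 members among 3041. For tea against water on the high-fat diet 4.36% of genes passed, and 1 member was under 0.05 unadjusted, as were 23.6% of genes. For tea against water on chow 0.0235% passed, for high-fat against chow in tea-drinking mice 0.178%, and for the interaction of diet and tea 0.0657%, with 2, 2 and 1 members under 0.05 unadjusted, where 12.4%, 16.3% and 15% of genes were. DESeq2 and limma voom called 0 members in these 4 comparisons. Of all genes there, in this order, DESeq2 called 2444, 260, 935 and 692 and limma voom 1119, 6, 73 and 6. The edgeR shares in these 4 leave less than 1 call expected among 9 genes. The groups of 5 libraries overlapped for each member in each of the 4 pairwise comparisons, where 12.9%, 5.55%, 2.56% and 2.77% of all genes did not, in the order above.

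**Figure D2:**
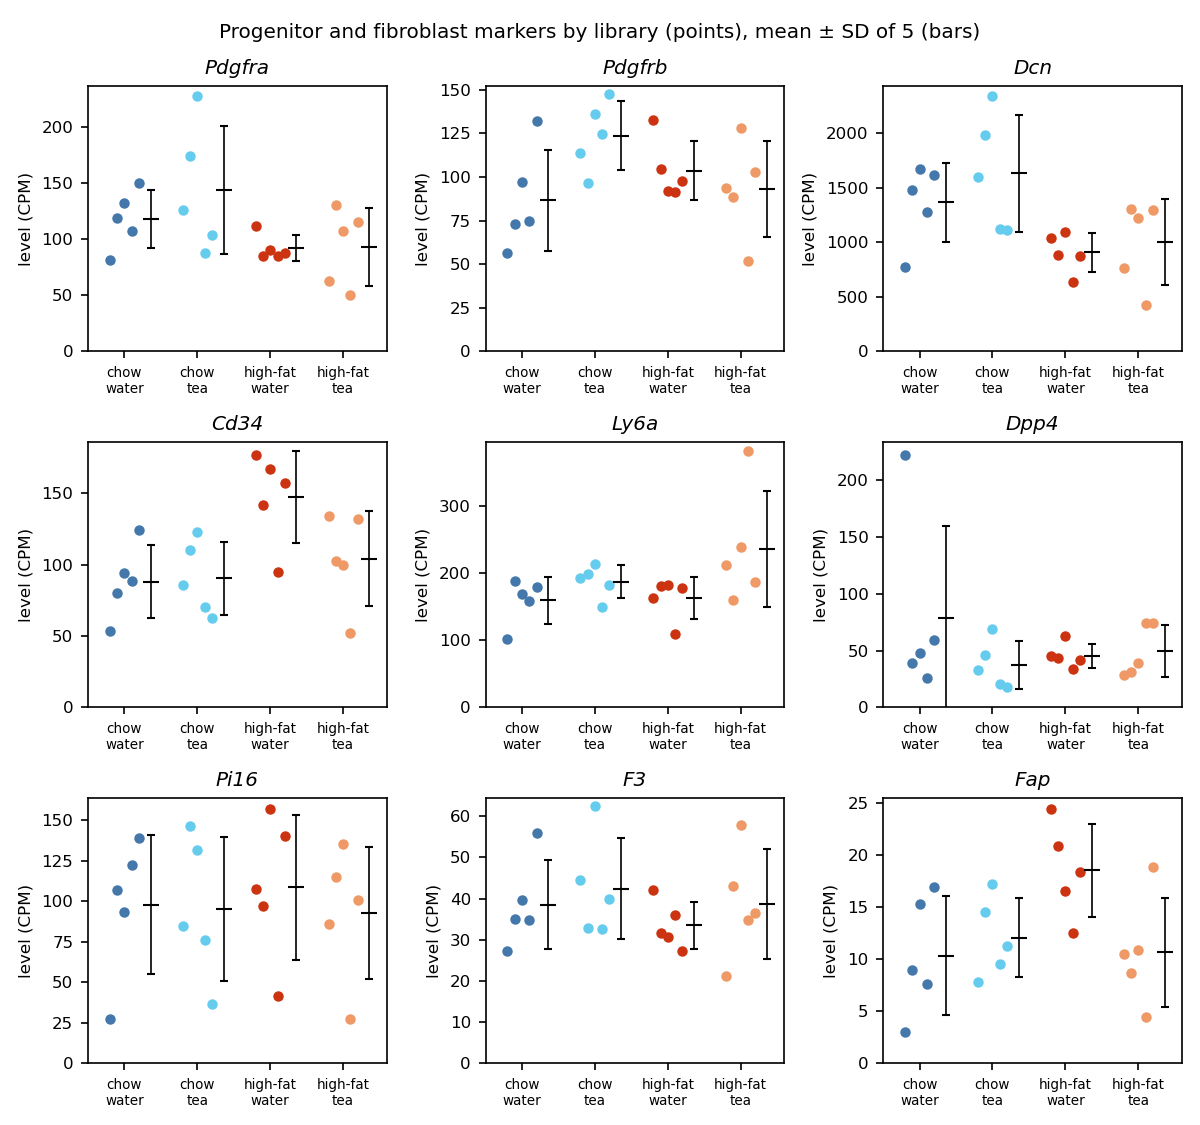
Level in CPM of each member in each library (points) with the mean ± SD of the 5 libraries of each group (bars); the lower bar of Dpp4 in chow water runs below 0 and is not drawn there. Cd34 and Fap are highest in high-fat water, and Dpp4 has 1 chow water library at 222.4.

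Cd34, a sialomucin of the cell surface, had the smallest p among the members for the high-fat diet. Chow water libraries had 53.49, 79.76, 94.06, 88.49 and 124.1 CPM of Cd34, and high-fat water libraries had 176.5, 141.5, 167, 94.74 and 157. Of the 5 high-fat water libraries 4 lay above every chow water library, and high-fat water 4, the library with male tract and adrenal transcripts, lay among them. The mean of Cd34 was 87.98 ± 25.49 against 147.3 ± 32.14 (SD, n = 5 each), a log2 change of 0.74 (95% interval 0.19 to 1.29), with an adjusted p of 0.061 by edgeR, just over the threshold.

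The Cd34 call depended on the libraries and the method. Its adjusted p was 0.0389 with DESeq2, 0.0331 in edgeR without chow water 5, 0.0407 without high-fat water 4, 0.0157 without the 3 libraries with pancreas, kidney or male tract reads, and 0.216 without all 9, where the log2 changes were 0.73 and 0.61. Scaling by library size alone gave 0.94 with an adjusted p of 0.0447, a scaling that moves the median of all genes from 0 to 0.26. Tea-drinking mice on chow had 85.94, 110.2, 122.5, 70.55 and 62.85 CPM of Cd34. On the high-fat diet with tea it was 133.8, 102.6, 99.35, 52.11 and 132.2, all below the median of the high-fat water libraries. That difference between drinks on the high-fat diet, -0.50 (-1.05 to 0.04), did not pass edgeR's test, with an adjusted p of 0.253, and was -0.46 without the 3 libraries and -0.43 without the 9.

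Fap, too, had its highest mean in high-fat water, at 18.52 CPM. Its level was 2.997, 8.986, 15.25, 7.565 and 16.93 CPM in chow water and 24.39, 20.83, 16.51, 12.49 and 18.38 in high-fat water. In high-fat tea Fap was 10.46, 8.672, 10.85, 4.445 and 18.82, so that 4 of these 5 libraries lay below every high-fat water library. Chow tea libraries ranged from 7.832 to 17.23 CPM. The log2 change of Fap with the high-fat diet in water was 0.84 (0.01 to 1.67, edgeR adjusted p = 0.159), and with tea on the high-fat diet -0.80 (-1.63 to 0.03, edgeR adjusted p = 0.231). Neither passed. Without the 3 libraries the changes were 0.72 and -0.71, and without the 9 they were 0.74 and -0.71.

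Dcn and Pdgfra lay on the other side of 0 for the high-fat diet. Chow water libraries held 775.4, 1481, 1669, 1281 and 1614 CPM of Dcn, against 1042, 878.4, 1097, 634.5 and 876.9 in high-fat water. The lowest chow water library was the one with pancreas transcripts, and the other 4 lay above all high-fat water libraries. In tea-drinking mice Dcn was 1601, 1980, 2336, 1119 and 1114 on chow and 764.6, 1306, 1219, 424.6 and 1297 on the high-fat diet. All 5 high-fat tea libraries lay below the chow tea median, yet the groups overlapped. The log2 change of Dcn was -0.59 (-1.23 to 0.05, edgeR adjusted p = 0.198) in water-drinking and -0.70 (-1.34 to -0.06, edgeR adjusted p = 0.268) in tea-drinking mice. In water it was -0.63 without the 3 libraries and -0.69 without the 9. In tea it was nearer 0, at -0.51 and -0.34.

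For Pdgfra the chow water values were 81.77, 118.8, 132.5, 107.7 and 150.2 CPM, and the high-fat water values 112, 85.06, 90.49, 85.22 and 87.51. Chow tea libraries held 125.9, 174.5, 227.9, 87.67 and 103.7, and high-fat tea libraries 62.73, 130.2, 107, 50.07 and 115.7. Every high-fat water library lay below the chow water median of this gene, within the chow water range. The changes with the high-fat diet were -0.36 (-0.93 to 0.20) in water and -0.63 (-1.19 to -0.06) in tea, with edgeR adjusted p of 0.385 and 0.261. For Pdgfra, too, the change in tea was nearer 0 without the 3 libraries and without the 9, at -0.47 and -0.28, whereas in water it was -0.44 and -0.43.

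Pdgfrb, the receptor shared with mural cells, had its highest mean in chow tea, 123.8 ± 19.69 CPM, against 86.62 ± 29.09 in chow water. Libraries of chow tea held 113.9, 96.52, 136, 124.8 and 147.4, and those of chow water 56.58, 73, 96.85, 74.75 and 131.9, and the groups overlapped through 131.9 and 96.85 in chow water. The log2 difference of Pdgfrb was 0.51 (0.04 to 0.98, edgeR adjusted p = 0.353). The high-fat groups spanned 91.6 to 132.4 with water and 51.93 to 128.3 with tea, and the interaction of diet and tea was -0.67 (edgeR adjusted p = 0.329). Without the 3 libraries the difference on chow was 0.39 and the interaction -0.44, and without the 9 they were 0.30 and -0.60.

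Dpp4 and Pi16, which mark interstitial progenitors, did not separate by diet in CPM. Dpp4, a serine dipeptidyl peptidase, was at 222.4 CPM in chow water 1 and at 38.67, 47.84, 26.17 and 59.29 in the others of that group. High-fat water libraries held 45.35, 43.74, 62.69, 33.39 and 41.81, and all but the one at 62.69 lay within the range of those 4. The library at 222.4 is the one in which pancreas genes made up 35.9% of reads, and without it the log2 change with the high-fat diet moved from -0.80 to 0.04 for Dpp4 in edgeR. Its tea difference on chow, -1.07 (edgeR adjusted p = 0.4), was reduced to -0.22 without that library. The change with the high-fat diet in water was 0.17 without the 3 libraries and -0.03 without the 9, and the tea difference on chow -0.20 and -0.22. The part of pancreas RNA in these values was not tested otherwise.

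Pi16, a secreted protease inhibitor-like protein, spanned 27.56 to 138.9 CPM in chow water, 36.57 to 146.3 in chow tea, 41.45 to 157.1 in high-fat water and 27.32 to 135.1 in high-fat tea. Its means ran from 92.75 to 108.6 with SDs above 40 in each group, and its interval for the high-fat diet in water, -0.81 to 1.12, includes both a fall and a rise of considerable size. That change was 0.15, and 0.12 without the 3 libraries, but lay below 0 without the 9, at -0.24. F3, the initiator of blood clotting, had group means from 33.55 to 42.44 CPM, with the high-fat diet change in water at -0.20 (-0.71 to 0.30), 0.02 when scaled by library size alone, -0.33 without the 3 libraries and -0.27 without the 9.

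Ly6a was 162.7, 181.5, 182.5, 109.5 and 178.5 CPM in high-fat water and 211.4, 160.3, 239.5, 381.3 and 186.5 in high-fat tea. The highest value belonged to high-fat tea 4, in which kidney genes made up 2.22% of reads; 4 of the 5 tea libraries lay above every water library. The log2 difference of Ly6a was 0.53 (0.08 to 0.98, edgeR adjusted p = 0.143). It was smaller with libraries that hold other organs' reads left out: 0.29 without high-fat tea 4 (edgeR adjusted p = 0.398), 0.18 without the 3 libraries and 0.02 without the 9. Chow water and chow tea libraries spanned 101.1 to 188.6 and 149.4 to 213.8.

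**Figure D3:**
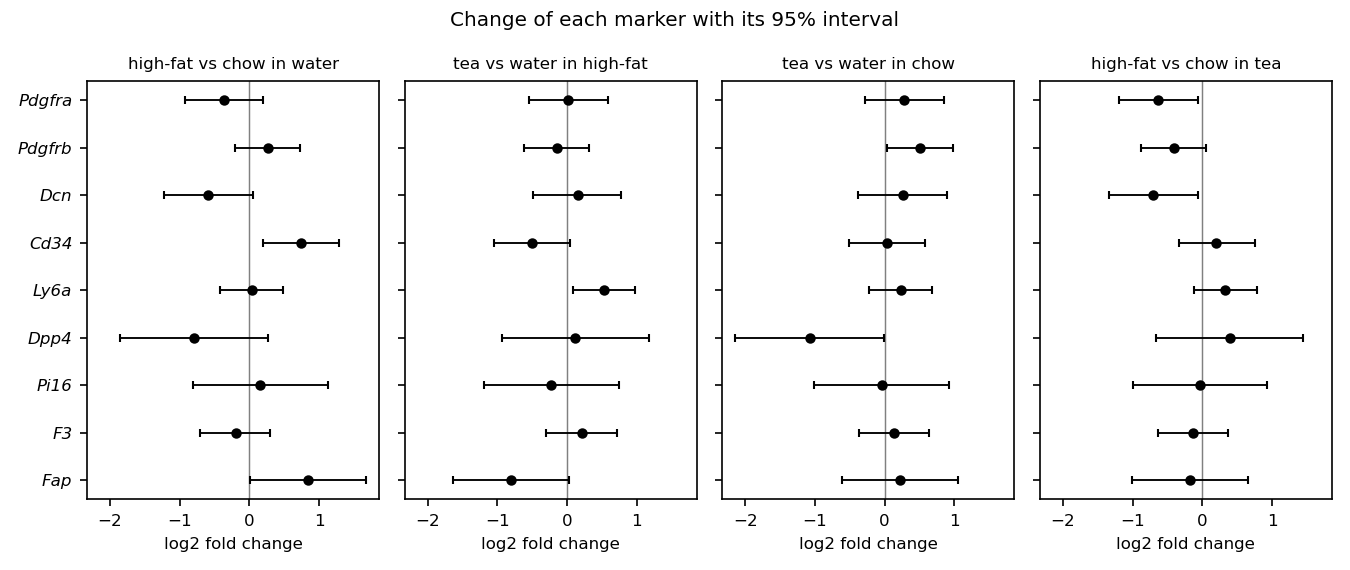
Log2 fold change of each member (points) with its 95% interval (lines) in the 4 pairwise comparisons, from the edgeR fit to all 20 libraries. For the high-fat diet in water Cd34 and Fap lie above 0 and Dcn and Pdgfra below, and none of the 36 changes passed the adjusted threshold.

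Because Cd34 and Dcn lay on opposite sides of 0, the members were also set against Dcn within each library, a comparison chosen after these values were seen. There were 6.9, 5.39, 5.64, 6.91 and 7.69 reads of Cd34 per 100 reads of Dcn in chow water and 16.9, 16.1, 15.2, 14.9 and 17.9 in high-fat water. The lowest high-fat library was at 14.9 and the highest chow library at 7.69. In tea-drinking mice the ratio was 5.37, 5.57, 5.24, 6.3 and 5.64 on chow, and 17.5, 7.86, 8.15, 12.3 and 10.2 on the high-fat diet, again without overlap.

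Of the 8 members set against Dcn, 4 did not overlap between high-fat and chow in water-drinking mice: Cd34, Fap, Pdgfrb and Ly6a. Among 18355 genes with reads in every library, 16.3% did not overlap in their ratio to Dcn. Ly6a by itself was at 0.03 (edgeR adjusted p = 0.936), and its change relative to Dcn was 0.61 (limma adjusted p = 0.268). Dpp4 overlapped through chow water 1, at 28.7 reads per 100 of Dcn. The other chow water libraries held 2.04 to 3.67 for Dpp4, and high-fat water libraries 4.35 to 5.72. For Fap the ratio was 0.386 to 1.05 in chow water and 1.51 to 2.37 in high-fat water. High-fat tea libraries had 1.37, 0.664, 0.89, 1.05 and 1.45 Fap reads per 100 of Dcn, all below the high-fat water libraries. Fap was the single member of 8 without overlap there, where 3.07% of genes had none. On chow, tea and water overlapped for all 8 (0.610% of genes did not). In tea-drinking mice the ratio of Cd34 alone of 8 separated by diet (5.58% of genes), while Cd34 itself, in CPM, overlapped between the diets.

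In a limma fit to the log2 ratio to Dcn of all genes, 3 of 8 members were called for the high-fat diet in water, where 14.0% of genes were called and the median over all genes was 0.58. The changes relative to Dcn were 1.33 (0.88 to 1.78) for Cd34, 1.60 (0.97 to 2.23) for Fap and 0.87 (0.29 to 1.45) for Pdgfrb, with limma adjusted p of 0.00035, 0.00118 and 0.0407. Cd34 and Fap stayed called whichever of the 10 libraries was left out, and also without the 9 libraries with other organs' reads (adjusted p = 0.0196 and 0.0222 by limma). Pdgfrb stayed called in 3 of those 10 fits. Since Dcn was chosen from these same values, p-values and left-out fits relative to it are descriptions, not independent support. The change of Dcn itself, -0.59 in edgeR, enters each ratio, and Pdgfrb by itself was at 0.26 (edgeR adjusted p = 0.459). For high-fat against chow in tea-drinking mice, limma called Cd34 alone of the 8, at 0.93 (0.48 to 1.38, adjusted p = 0.0453), against 1.28% of genes and a median of 0.79. This call stayed in 3 of 10 fits and was lost without the 9 libraries (adjusted p = 0.764). Cd34 by itself was at 0.20 in this comparison (-0.34 to 0.75, edgeR adjusted p = 0.754), and Dcn at -0.70.

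Tea against water gave no call relative to Dcn. In mice on the high-fat diet limma called 0 of 8 members, with 2 under an unadjusted p of 0.05, Fap at -0.96 (adjusted p = 0.149) and Cd34 at -0.60 (adjusted p = 0.256), where 1.53% of genes were called. On chow, and for the interaction, 0 of 8 members and 0.00% of genes were called by limma, with 0 members and 1 member under 0.05 unadjusted; that member, Fap, had an interaction of -1.11 (adjusted p = 0.851). Pdgfra moved with Dcn: its ratio averaged 8.84 ± 1.1, 8.72 ± 0.858, 10.4 ± 1.91 and 9.53 ± 1.42 reads per 100 of Dcn in chow water, chow tea, high-fat water and high-fat tea.

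**Figure D4:**
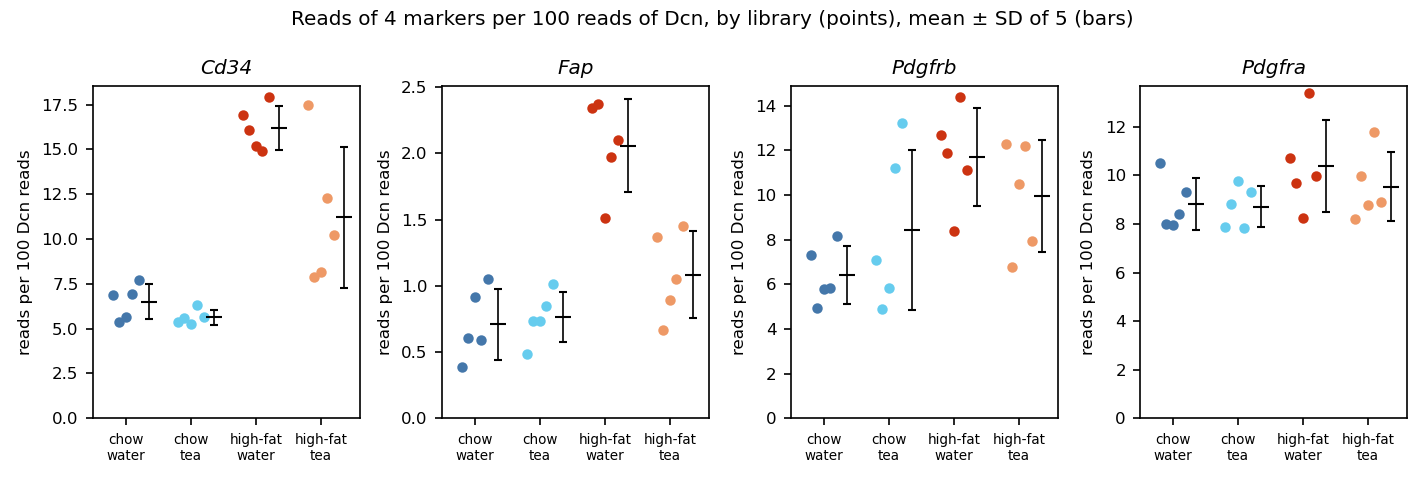
Reads of Cd34, Fap, Pdgfrb and Pdgfra per 100 reads of Dcn in each library (points) with the mean ± SD of 5 (bars). High-fat water libraries lie above all chow water libraries for Cd34, Fap and Pdgfrb, while the groups overlap for Pdgfra.

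Across the 20 libraries the members fell into different patterns of likeness, given as Pearson correlations of log2 CPM, a description over libraries that share diet and dissection. Pdgfra and Dcn were each other's close match at 0.94, and Dcn was also like Scara5 (0.95), a ferritin receptor of stromal cells, and Osr1 (0.91), a transcription factor of connective tissue. Cd34 was most like Fstl1 (0.97), Loxl1 (0.96), a lysyl oxidase that crosslinks elastin, and Islr (0.95). Fap was most like the basement membrane gene Nid1 (0.96), Kirrel (0.94) and Mgl2 (0.94), a macrophage lectin. Between members, Cd34 and Fap correlated at 0.85, whereas Cd34 and Dcn were at 0.26.

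Pi16 was most like Clec3b (0.94), Plac9 (0.88) and Pla1a (0.87), and Pdgfrb most like Pde1b (0.92), Chst12 (0.92) and Tpst1 (0.91). The matches of F3 were Snx2 (0.86), Cnnm3 (0.79) and Trib3 (0.78), and those of Dpp4 were Sh3d19 (0.89), Slc25a45 (0.87) and Slc16a6 (0.84). Ly6a was like Tefm (0.86), Ildr2 (0.85) and Slc35b4 (0.85), values that were 0.66, 0.58 and 0.47 without high-fat tea 4 and chow water 1. All other named matches stayed at 0.65 or above without the pair of libraries farthest from the median.

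Some other genes from lists of these populations, counted here without the members, were called by edgeR. For the high-fat diet in water, where 8.06% of all genes rose and 7.11% fell, 7 of 19 pan-fibroblast genes rose and 0 fell, with a list median of 0.83 against 0.00 for all genes. They included 2 chains of collagen VI, Col6a2 at 1.85 and Col6a1 at 1.52, the procollagen processing enhancer Pcolce at 1.36 and Loxl1 at 1.08. Pcolce was at 0.87 without high-fat water 4, and the call of Loxl1 was lost without high-fat water 1. The rest of the 7 stayed called in 1, 3 and 4 of 10 fits with a library left out. Of 15 activated fibroblast genes 2 rose and 0 fell, with a list median of 0.54. These 13.3% stand beside 8.06% of all genes that rose and 15.2% called in either direction. The 2 were the metalloproteinase inhibitor Timp1 at 2.23 and Cthrc1 at 1.97, the latter called in 3 of 10 fits with a library left out (without chow water 5 or high-fat water 3 or 5). Timp1 averaged 1.001 ± 0.16 against 4.692 ± 4.369 CPM.

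Among 17 interstitial progenitor genes 3 rose and 0 fell, with a list median of 0.6. These 17.6% stand beside 8.06% of all genes that rose and 15.2% called in either direction. The 3 were Igfbp5, which binds insulin-like growth factors, at 1.00, Sema3c, a secreted semaphorin, at 0.95, and Limch1 at 0.85. Limch1 stayed called whichever library was left out, Igfbp5 was lost without chow water 2 or high-fat water 5, and Sema3c stayed only without chow water 5 or high-fat water 4. Of 16 committed preadipocyte genes 2 rose and 1 fell, 18.8% and near the 15.2% of all genes called in either direction, with a list median of 0.11. Col15a1, a basement membrane collagen, rose by 2.79, and the angiotensinogen gene Agt fell by 1.36. Dlk1 was at 4.40 in the full fit and at 0.14 without high-fat water 4, the library with adrenal transcripts. The list around F3 had 2 higher and 1 lower of 11: Bst2 at 0.64, lost without high-fat water 2, the homeobox gene Meox2 at 1.06, kept only without chow water 5 or high-fat water 4, and Fmo2 at -0.97, kept only without chow water 1 or 5 or high-fat water 3.

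In the families of the members, again without the members themselves, 0 of 6 PDGF ligands and receptors and 0 of 5 DPP4-like peptidases were called by edgeR in any of the 5 comparisons, and for the high-fat diet in water 2 and 1 were under 0.05 unadjusted. DESeq2 called 1 of them in that comparison, Pdgfd, and limma voom 0. The ligands Pdgfa, Pdgfc and Pdgfd were at 0.33, 0.45 and 0.44 for the high-fat diet in water, with edgeR adjusted p of 0.49, 0.16 and 0.0531, and Pdgfb at -0.14 (0.738). Among 10 other small leucine-rich proteoglycans, the family of Dcn, Aspn rose by 1.19 and Prelp by 1.96, the latter lost without chow water 2 or high-fat water 1, and Podn fell by 0.99. Bgn and Lum, also of this family, were at 0.48 and 0.66 (edgeR adjusted p = 0.0819 and 0.101).

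Among 9 other genes of the tissue factor pathway, the coagulation factors F7 and F10 rose by 4.73 and 2.61 and the inhibitor Tfpi2 by 2.32. Thbd, the endothelial thrombomodulin, fell by 0.74, a call kept only without chow water 1 or high-fat water 3. Of 9 other Ly6 genes on chromosome 15, Lynx1 and Ly6h rose, by 1.87 and 1.95, and of the other 2 CD34-like sialomucins Podxl2 rose by 2.00. In all, 28 of 116 listed genes other than the members were called, 24.1% where 15.2% of all genes were, for the high-fat diet in water, 15 of them whichever library was left out, 27 without the 3 libraries and 12 without the 9. Of the 3232 genes called among all genes, 2708 stayed called without the 3 libraries and 1390 without the 9.

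For tea against water on the high-fat diet 8 of these 116 genes were called, 6.9% where 4.36% of all genes were, and 1, Col15a1, stayed called whichever library was left out. Col15a1 fell by 2.38, from 391.7 ± 98.72 to 75.05 ± 52.69 CPM (edgeR adjusted p = 0.00713). Col6a2 and Col6a1 were at -1.66 and -1.33, both lost without high-fat water 1 or 2 or high-fat tea 2 or 3, and Timp1 was at -1.87, or -1.13 without high-fat water 4. F7 was at -3.14, lost without high-fat water 1 or high-fat tea 3, and Fmo2 at 1.33, lost without high-fat water 1. Aldh1a2 at -1.48 stayed only without high-fat water 5 or high-fat tea 5, and Aspn at -1.04 only without high-fat water 4 or high-fat tea 5. Timp1 stayed only without high-fat water 2, 3 or 5 or high-fat tea 5. Without the 3 libraries 6 of the 8 were called, and without the 9, which removes most high-fat libraries, edgeR called 0. Of the 928 genes called among all genes, 751 and 9 stayed called in these fits. Some markers of other cell types also differed in this comparison. Mesothelial markers had a median of 1.88, with summed levels of 43.44 to 179.9 CPM in high-fat water and 133.1 to 665.1 in high-fat tea, and 1 of 10, Krt7, rose by 4.28 (edgeR adjusted p = 0.0384). Adipocyte markers had a median of -0.07 and summed to 12840 to 22340 and 7256 to 40420. Of these 12 markers 1, Cfd, rose by 1.91 (edgeR adjusted p = 0.0376), from 2294 ± 783.8 to 8602 ± 6639 CPM, amounts that enter the sums. Each of these calls stayed in 2 of 10 fits with a library left out, Krt7 without high-fat tea 1 or 5 and Cfd without high-fat tea 4 or 5. Of 10 macrophage markers edgeR called 0, with 4 under 0.05 unadjusted, and DESeq2 and limma voom 1 each, and they summed to 1367 to 3250 and 596.5 to 2031. Their part in the called genes and in the levels of the members was not tested.

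In tea-drinking mice 1 listed gene was called for the high-fat diet, Agt at -1.65, which stayed only without chow tea 2 or high-fat tea 3. For tea on chow and for the interaction, edgeR called 0 of the 116 listed progenitor and pathway genes that are not members, with 13 and 19 under 0.05 unadjusted. DESeq2 called 1 and 7 of them and limma voom 0 in both.

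Markers of other cell types that carry some of these transcripts were read in the same libraries, and none of the markers in 5 lists was at 0 in any library. Of 10 endothelial markers 0 were called for the high-fat diet in water by edgeR, DESeq2 or limma voom, with 0 under 0.05 unadjusted in edgeR, and their summed level was 1168 to 2119 CPM in chow water and 1428 to 2134 in high-fat water. Of 10 mural cell markers 1 fell, and the sums were 941.2 to 1831 and 882 to 1892. Macrophage markers summed to 573.4 to 2080 in chow water and 1367 to 3250 in high-fat water, and 2 of 10 rose. Of 10 mesothelial markers 4 fell by edgeR, where DESeq2 called 5 and limma voom 0, with sums of 109.7 to 1450 and 43.44 to 179.9. The 4 were Krt19, Krt8, Krt7 and Upk1b. Krt19 and Krt8 varied widely in chow water, at 99.92 ± 129.6 and 176.8 ± 322 CPM. That group holds the library with pancreas reads, whose part in these falls was not tested. Of 12 adipocyte markers 1 rose and 1 fell, with a median of 0.07 and sums of 12030 to 39530 and 12840 to 22340. The means of these 2 enter the sums, Lep at 58.91 and 1608 CPM and Cfd at 11680 and 2294 CPM. The part of macrophage and mesothelial RNA in the levels of Cd34 and Fap was not tested.

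The members lie at these positions in GRCm39, as the count tables give them. Pdgfra spans chr5:75312953-75358876, Cd34 chr1:194621127-194643587, F3 chr3:121517186-121528697, Dcn chr10:97315471-97354005, Pi16 chr17:29536654-29549567 and Pdgfrb chr18:61178222-61218133, all on the plus strand. Dpp4 at chr2:62160417-62242575 and Fap at chr2:62331287-62404419 are neighbours on the minus strand, and Ly6a lies at chr15:74866726-74869880 on the minus strand. Between 2.03% and 6.5% of the exonic bases of Pdgfra, Dpp4, Pi16 and Cd34 overlap another annotated gene, mostly on the opposite strand, whose reads cannot be told apart here; the other 5 have no overlap.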

How the data were processed

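Per the labels' protocols, RNA was extracted with TRIzol and made into stranded poly-A libraries. The authors deposited whole-number counts of reads per gene for each of the 20 libraries, not normalized. The build named in the submitters' processing notes is mm10, with the tools fastp 0.23.2, HISAT2 2.2.1 and featureCounts 2.0.6, whereas the file headers name the GENCODE vM32 annotation of GRCm39, to which the coordinates belong. Reads of a pair were counted singly and without regard to strand, per the options in the file headers. Between 68.1% and 72.2% of counts from 1 to 20 were even in each library, so most fragments entered as a pair of reads. No alignment settings are given in these sources.

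Counts were filtered with filterByExpr (minimum count 10, minimum total 15), scaled by TMM and fitted over all 20 libraries with edgeR 4.0.16 (R 4.3.3; quasi-likelihood F test, 4 group means, Benjamini-Hochberg over 21306 genes, called at an adjusted p of 0.05). Intervals are 95%. The common biological coefficient of variation was 0.593. DESeq2 1.42.0 and limma 3.58.1 (voom) were alternatives, as were other scalings, filters, samples and a replicate block. Ratios to Dcn were fitted with limma over all other genes. The edgeR fit and the fit of ratios were tested on simulated data. No pair of libraries of 1 group agreed within sampling noise: the lowest chi-square per gene was 68.7 over 40 pairs.

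The members and lists were chosen with earlier results of these data known. All members are named whatever their result, with the 3 genes most correlated with each over the libraries (mean log2 CPM of at least 3, 9654 genes compared), and from each list up to 4 called genes with the lowest p in each comparison. Lists other than the members come from general knowledge.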

Additional observations from a re-analysis of the deposited data

Results flagged for a closer look

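Among the 36 groups of 5 libraries formed by 9 members and 4 groups, 3 had a library far from the other 4, with a gap to its neighbour above 0.71 of the whole range. Chance alone sets such a library apart in about 1 of 20 groups. Dpp4 was at 222.4 CPM in chow water replicate 1, with a gap of 0.831 of the range, in the library with 35.9% pancreas reads. Pdgfra was at 112.0 CPM in high-fat water replicate 1, above the other 4 libraries by 0.798 of the range. Ly6a was at 109.5 CPM in high-fat water replicate 4, below the others by 0.729 of the range, in the library with male tract and adrenal reads. Whether the other organs' RNA set these values was not tested.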

How the results depend on the processing

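The number of members called for the high-fat diet in water was 0 in the full fit. It was 1 (Cd34) with DESeq2, with library size alone and without the 3 libraries, where 4401, 3702 and 4546 of all genes were called. Leaving out single libraries gave 0 to 1 members. In the other 4 comparisons the number of members called was 0 under every setting tried. Relative to Dcn it was 3 for the high-fat diet in water, 5 without the 3 libraries (Cd34, Fap, Pdgfrb, Dpp4 and Pi16) and 2 to 3 with single libraries left out. In tea-drinking mice it was 1, 0 without the 9 libraries and 0 to 2 with single libraries left out, 2 being Cd34 and Ly6a without high-fat tea replicate 2. These settings for the ratio to Dcn were added after seeing the data. How many of all genes each of them called was not counted, so these member counts have no share beside them. With the replicate block 0 members were called in each of the 5 comparisons; same-numbered libraries deviated together with correlations of -0.27 to 0.475, and 4 of 20 libraries correlated best with their own number, so the numbers were not taken as pairs. Of 981 values of member changes under alternatives, 908 kept their direction and side of the threshold, 5 passed it, all of them Cd34 for the high-fat diet in water, and 68 changed sign without a call on either side. Over all genes, calls ran from 1890 without high-fat water replicate 1 to 4546 without the 3 libraries for the high-fat diet in water (3232 in the full fit; 2110 without chow water replicate 2 and 2052 without the 9), and for tea on the high-fat diet from 13 without the 9 libraries and 21 with the compared groups alone to 2444 with DESeq2 (928; 339 with library size alone, 408 without a filter, 1602 without the 3, and 212 to 2017 with single libraries left out). Tea on chow gave 0 to 260 calls (5; 260 with DESeq2), the high-fat diet in tea-drinking mice 5 to 935 (38; 935 with DESeq2, 390 without high-fat tea replicate 3) and the interaction 0 to 692 (14; 692 with DESeq2, 111 without high-fat tea replicate 5); the interaction already uses all groups, so that no fit with fewer groups was made. Library size alone moved the share of higher among called genes from 53.2% to 84.5% for the high-fat diet in water. The cause of these differences was not tested. Fap, with 92 reads in its lowest library, is the member whose precision depth limits most.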
